A study of Paspalum vaginatum with 72 samples.

Results

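Proline is a small amino acid that many plants accumulate under salt, and its level depends on enzymes that make it and enzymes that break it down. The genes followed here stand at the entry of each route in seashore paspalum (Paspalum vaginatum), a turfgrass of saline shores. Delta-1-pyrroline-5-carboxylate synthase 2 (P5CS2, emFS18.1840) belongs to synthesis and proline dehydrogenase 2 (ProDH2, emOS55.1752) to breakdown. They are 2 of the 27743 gene models in the deposited table and were chosen by identifier, with earlier results of these data known. In the coordinates of that table, for which no source used here names a genome build, P5CS2 lies on the plus strand of chromosome 3 from 39947716 to 39955493. ProDH2 lies on the minus strand of chromosome 1 from 39634231 to 39636727. The table gives the span of each gene and not its exons, and the gene names are matches to proteins of other species.

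P5CS turns glutamate into glutamate semialdehyde, which closes to pyrroline-5-carboxylate (P5C), and P5C reductase then makes proline. ProDH, an enzyme of the mitochondrion, oxidises proline back to P5C, and P5C dehydrogenase returns it to glutamate. In Arabidopsis a P5CS gene is induced by salt, drought and abscisic acid, ProDH is repressed by water deficit and induced by proline when stress is relieved, and both genes also follow light and dark.

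Leaves and roots of a salt-tolerant accession, USA17-18, and a salt-sensitive accession, USA17-26, were sampled from non-stressed plants (control) and from plants in NaCl at 5 times (8 h, 12 h, 24 h, 48 h and 5 days). Each of the 24 conditions has 3 libraries, and each accession is a single germplasm line grown from stolons in hydroponic containers, with 6 plants pooled in a biological replicate. The description of the series gives 400 mM NaCl at every time and the methods a daily rise of 100 mM up to 400 mM, so the concentration behind the earlier times cannot be settled here. The labels place the controls at time 0, the description of the series has plants in water for each of the treatment times, and the methods describe non-stressed plants collected on the fifth day. Which of these the 1 control group per accession and tissue stands for cannot be settled here, and no source used here states at which hour plants were collected.

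Levels are FPKM, fragments scaled by gene length and by the mapped total of the library, and a fold change is a difference on the log2(FPKM + 1) scale with its standard error (SE) from limma. To be called, a difference had to have an adjusted p no higher than 0.05 and a log2 size no lower than 1.5, the thresholds the study used. Summed FPKM per library ran from 671959 to 774486 and depth, estimated on a relative scale from the lowest values, from 0.949 to 1.196, since read totals were not used here. Of the 72 libraries, 10 correlated with the other libraries of their condition clearly less than those did with each other, 8 from leaves and 2 from roots, and they stand apart in this sense. The 24 leaf marker genes (Rubisco small chain, chlorophyll a-b binding proteins, photosystem I subunits) summed to 1598 to 63690 FPKM in leaves and to 14.3 to 1550 FPKM in roots, where the library with 1550 FPKM was replicate 1 of sensitive roots at 5 days. The 10 root marker genes summed to 189.4 to 3038 FPKM in roots and to 15.9 to 301.4 FPKM in leaves.

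Clock genes moved with the sampling times. CCA1 (emOS184.45), a gene of the morning in other plants, lay between 0.60 and 26.2 FPKM in control, 8 h and 12 h libraries of both tissues and between 129.6 and 1070 FPKM from 24 h to 5 days. PRR1 (emOS174.810), a gene of the evening in other plants, lay in leaves between 60.7 and 94.9 FPKM in controls, 63.8 and 83.9 FPKM at 8 h, 16.4 and 22.2 FPKM at 12 h and 0.83 and 2.61 FPKM from 24 h to 5 days. Of the 26 clock genes, 23 were tested in leaves, and 2 of them were called at 8 h in tolerant leaves and 1 in sensitive leaves. At 12 h these counts were 12 and 9. Of all genes, 11.9% and 1.65% were called at 8 h and 13.9% and 8.94% at 12 h. In roots 22 clock genes were tested, and at 8 h 4 were called in the tolerant and 2 in the sensitive accession, where 12.7% and 12.9% of all genes were called. REVEILLE 1 (emFS22.37), also a clock gene, differed at 8 h, with 6.28 to 15.2 FPKM in control leaves against 71.95 to 130.9 FPKM, and 2.53 to 7.42 FPKM in control roots against 46.8 to 65.6 FPKM. Salt and hour of the day therefore cannot be told apart in a comparison with the controls, at 8 h either, although fewer clock genes were called there in leaves than at 12 h. In the comparisons of accessions at 1 time, at most 2 clock genes were called.

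P5CS2 was called higher in salt in every accession, tissue and time, and its groups of 3 libraries did not overlap the controls in any of the 20 comparisons. Here and for ProDH2 such a lack of overlap is a description, since its share over all genes was not determined. In control leaves of the tolerant accession it was at 45.3, 58.9 and 47.9 FPKM. At 8 h these leaves held 638.8, 715.3 and 712.5 FPKM, and at 12 h 331.9, 533.4 and 445.5 FPKM. The 24 h libraries were at 673.1, 798.7 and 570.5 FPKM. The lowest stressed library up to that time was thus far above the highest control. At 48 h the values were 523.2, 348.0 and 303.3 FPKM, and at 5 days 369.2, 335.4 and 298.6 FPKM. Over the 5 times the log2 fold changes in tolerant leaves lay between 2.70 and 3.75 (SE 0.32, highest adjusted p = 2.599e-07). Of all genes tested in tolerant leaves, 11.9% were called at 8 h, 13.9% at 12 h, 13.7% at 24 h, 10.8% at 48 h and 9.33% at 5 days.

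Control leaves of the sensitive accession were at 99.3, 75.1 and 107.4 FPKM of P5CS2. At 8 h the libraries were at 320.0, 356.7 and 662.0 FPKM, and at 12 h at 207.1, 579.7 and 441.7 FPKM. At 24 h they reached 1174, 621.4 and 811.9 FPKM. The first of these, a library that stands apart, held the highest P5CS2 level of the series, and sensitive leaves at 24 h had the highest mean of the 24 conditions with 869.0 ± 280.5 FPKM (SD, n = 3). At 48 h the values were 558.7, 660.2 and 948.8 FPKM, and at 5 days 631.6, 447.0 and 429.0 FPKM. The log2 fold changes ran from 2.00 at 12 h to 3.16 at 24 h (SE 0.32, highest adjusted p = 0.0001337). The share of all genes called in sensitive leaves was 1.65% at 8 h, 8.94% at 12 h, 22.7% at 24 h, 8.55% at 48 h and 7.11% at 5 days. The median log2 fold change of all genes at 24 h was -0.57, below that of every other salt comparison. The count of genes called at 8 h, 371, was 1979 without the libraries that stand apart, control replicate 3 among them. P5CS2 at 8 h stood at a log2 fold change of 2.17 (95% interval 1.52 to 2.83).

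Control roots held less P5CS2 than control leaves. In control roots of the tolerant accession it was at 8.78, 9.08 and 9.88 FPKM, the lowest mean of the 24 conditions. It stood at 350.2, 297.6 and 197.4 FPKM at 8 h and at 170.1, 365.4 and 437.8 FPKM at 12 h. At 24 h it was at 159.2, 153.6 and 143.3 FPKM. The values were 160.6, 74.3 and 173.5 FPKM at 48 h and 71.3, 75.8 and 139.3 FPKM at 5 days. The mean was highest at 12 h, but the libraries of 12 h and 48 h overlapped, and 12 h was not tested against a later time in roots. The log2 fold change was 4.88 at 12 h (SE 0.45, adjusted p = 2.839e-09) and 3.17 at 5 days (SE 0.45, adjusted p = 5.721e-06). In tolerant roots 12.7% of all genes were called at 8 h, 10.7% at 12 h, 9.10% at 24 h, 9.74% at 48 h and 5.56% at 5 days.

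In sensitive roots P5CS2 was also called higher at all 5 times. Controls were at 12.2, 19.6 and 18.3 FPKM of P5CS2, the 8 h libraries at 409.4, 325.1 and 177.6 FPKM and the 12 h libraries at 534.7, 134.1 and 319.4 FPKM. At 24 h the level was down to 73.9, 122.0 and 73.9 FPKM. It was at 100.9, 181.0 and 307.6 FPKM at 48 h and at 323.9, 185.6 and 241.5 FPKM at 5 days. The libraries of 24 h and 5 days did not overlap, and the log2 difference between these times was 1.47 (SE 0.45, adjusted p = 0.01479), just under the fold threshold. It rests on single libraries. It was 1.71 without replicate 2 of 24 h (adjusted p = 0.01323) and 1.67 without replicate 2 of 5 days (adjusted p = 0.02028), both called. It was 1.35 without replicate 1 (adjusted p = 0.06216) or replicate 3 of 24 h (adjusted p = 0.05923), and 1.27 without replicate 1 of 5 days (adjusted p = 0.07632), the root library with the high leaf marker sum. In tolerant roots the same difference was -0.73 (SE 0.45, adjusted p = 0.4635), and whether the accessions differ in it was not tested. The log2 fold change against control was 2.35 at 24 h (SE 0.45, adjusted p = 0.0001163) and 3.82 at 5 days (SE 0.45, adjusted p = 2.074e-07). Replicate 1 at 5 days held the highest P5CS2 level of its group, and without it the log2 fold change was 3.61 (adjusted p = 4.808e-06). Of all genes in sensitive roots, 12.9% were called at 8 h, 11.4% at 12 h, 11.9% at 24 h, 9.36% at 48 h and 12.6% at 5 days.

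**Figure D1:**
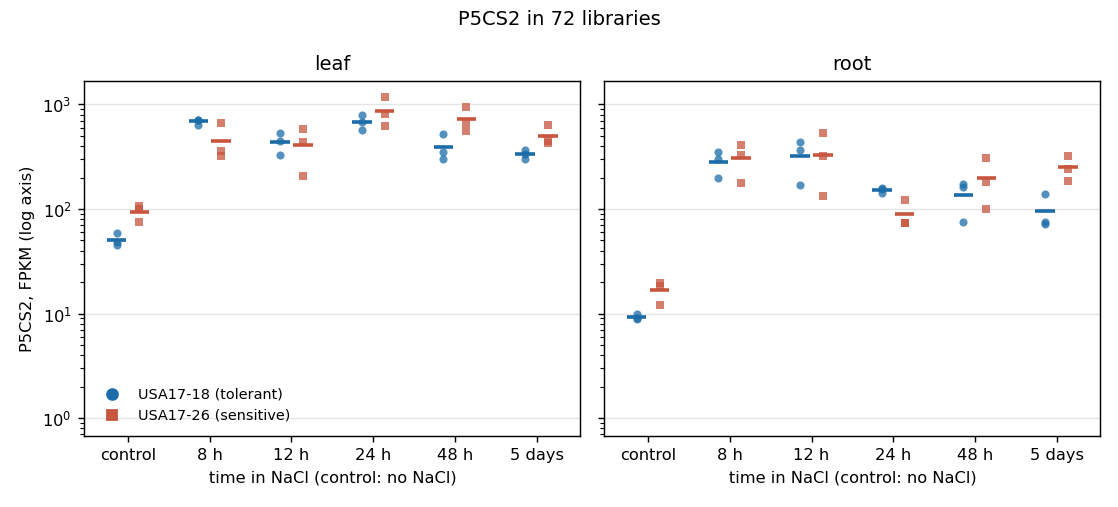
P5CS2 level (FPKM, log axis) in each of the 72 libraries by time in NaCl, leaves on the left and roots on the right. Points are libraries and short lines are means of 3; every stressed library lies above the control libraries of its accession and tissue, from 8.78 to 9.88 FPKM in tolerant control roots up to 1174 FPKM in a sensitive leaf library at 24 h.

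Between 24 h and 5 days of salt, 0 of 23 clock genes were called in tolerant leaves, 1 of 23 in sensitive leaves and 1 of 22 in roots of each accession. From 24 h to 5 days P5CS2 in leaves differed by -1.02 on the log2 scale in the tolerant accession (SE 0.32, adjusted p = 0.03669) and by -0.76 in the sensitive accession (SE 0.32, adjusted p = 0.06128). Neither passed both thresholds. The share of all genes called between these times was 3.53% in tolerant leaves, 10.7% in sensitive leaves, 1.11% in tolerant roots and 8.72% in sensitive roots. In the order of the 24 condition means, 20 of the 23 pairs of neighbours overlapped in their libraries. All 10 stressed leaf conditions had a mean of at least 334.4 FPKM, and the control roots stood last.

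ProDH2 went the other way in roots. In control roots of the tolerant accession it was at 151.5, 85.3 and 137.4 FPKM, the highest mean of the 24 conditions with 124.7 ± 34.8 FPKM (SD, n = 3). At 8 h the libraries were at 86.6, 33.7 and 42.9 FPKM, and the highest of them overlapped the lowest control. At 12 h they were at 30.1, 12.9 and 10.2 FPKM. From that time on every stressed library lay below every control. The 24 h libraries were at 10.3, 26.9 and 12.5 FPKM, the 48 h libraries at 11.8, 17.8 and 9.54 FPKM and the 5 days libraries at 14.52, 5.24 and 25.4 FPKM. The log2 fold change was -1.26 at 8 h (SE 0.53, adjusted p = 0.05585), which was not called, and lay between -3.16 and -2.85 at the 4 later times (highest adjusted p = 0.0001201). Without replicate 2 of the controls, or without replicate 1 at 8 h, the 8 h difference was -1.51 (adjusted p = 0.04774) or -1.65 (adjusted p = 0.02664) and was called.

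Control roots of the sensitive accession were at 43.4, 33.7 and 41.6 FPKM of ProDH2. The 8 h libraries were at 14.6, 61.8 and 16.0 FPKM, with 1 of them above all controls. At 12 h the values were 9.16, 19.7 and 21.8 FPKM, and at 24 h 15.7, 19.1 and 23.4 FPKM. Both groups lay below the controls without overlap, but their log2 fold changes, -1.26 (SE 0.53, adjusted p = 0.06096) and -1.002 (SE 0.53, adjusted p = 0.1355), were not called. ProDH2 was called lower at 48 h, with 14.8, 8.23 and 9.33 FPKM (log2 fold change -1.82, SE 0.53, adjusted p = 0.009327). It was also called lower at 5 days, with 11.9, 5.20 and 17.4 FPKM (log2 fold change -1.82, SE 0.53, adjusted p = 0.007743). The call at 5 days was lost without replicate 2, where the log2 fold change was -1.39 (adjusted p = 0.06151).

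In leaves ProDH2 was low and rose at 12 h. Control leaves of the tolerant accession were at 14.45, 11.0 and 12.9 FPKM, and the 8 h libraries at 27.1, 15.0 and 14.8 FPKM. At 12 h the level was 98.2, 105.9 and 83.6 FPKM. By 24 h it was back at 10.4, 18.9 and 16.8 FPKM, and no library of 24 h came near those of 12 h. The values were 9.23, 11.4 and 8.28 FPKM at 48 h and 11.3, 5.90 and 6.20 FPKM at 5 days. The 12 h libraries were higher than control (log2 fold change 2.81, SE 0.38, adjusted p = 1.663e-06), than 8 h (log2 difference 2.33, adjusted p = 0.0001646) and than 24 h (log2 difference from 12 h to 24 h -2.60, adjusted p = 5.552e-06).

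In sensitive leaves ProDH2 was also called higher at 12 h. Controls were at 8.15, 15.1 and 4.47 FPKM, the 8 h libraries at 2.62, 5.62 and 7.70 FPKM and the 12 h libraries at 38.0, 83.7 and 87.6 FPKM. Later levels were 9.24, 23.6 and 18.0 FPKM at 24 h, 17.1, 9.71 and 10.02 FPKM at 48 h and 10.6, 11.8 and 12.1 FPKM at 5 days. The 12 h libraries overlapped none of the other times. The log2 fold change at 12 h was 2.84 (SE 0.38, adjusted p = 3.172e-06), that from 8 h to 12 h was 3.49 (adjusted p = 3.325e-07) and that from 12 h to 24 h was -1.98 (adjusted p = 0.0001745). Under median-ratio scaling the last value was -1.38 and missed the fold threshold. Between 8 h and 12 h 3.49% of all genes were called in tolerant and 3.84% in sensitive leaves, and between 12 h and 24 h 11.9% and 11.8%. The clock gene PRR73 (emOS55.697) was also at its lowest in leaves at 12 h, at 11.7 to 25.0 FPKM against 159.6 to 369.6 FPKM in the other leaf libraries, and the part of the hour of the day in the ProDH2 rise was not tested.

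At the other 4 times no ProDH2 difference from control was called in leaves, although the tolerant libraries of 8 h lay just above their controls. At 5 days the log2 fold change was -0.69 in tolerant leaves (95% interval -1.48 to 0.09) and 0.42 in sensitive leaves (95% interval -0.36 to 1.21). Over the 20 salt comparisons ProDH2 was thus called higher in 2, called lower in 6 and not called in 12. P5CS2 was called higher in 20.

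**Figure D2:**
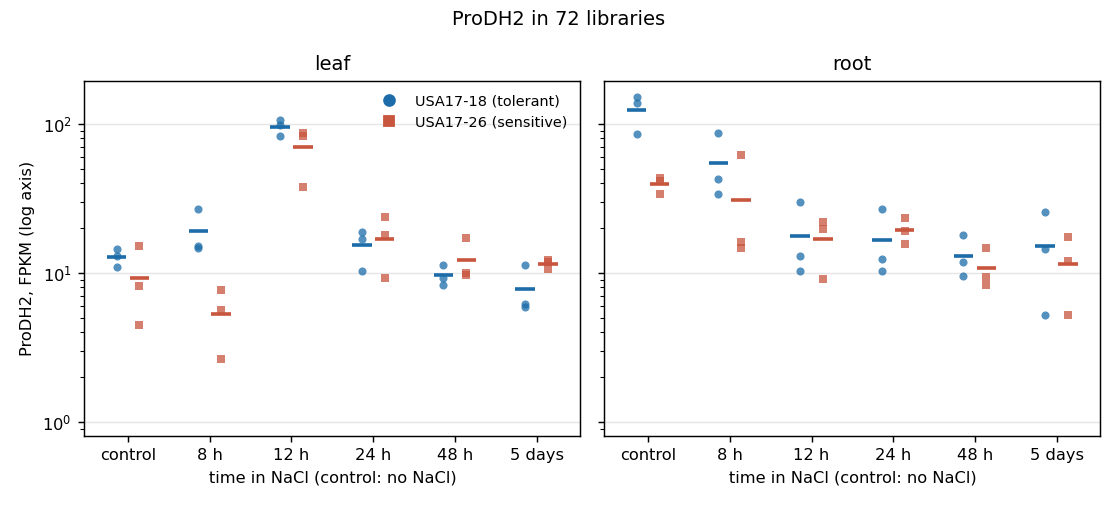
ProDH2 level (FPKM, log axis) in each of the 72 libraries by time in NaCl, leaves on the left and roots on the right. Points are libraries and short lines are means of 3; leaves at 12 h lie between 38.0 and 105.9 FPKM, control roots between 33.7 and 151.5 FPKM and roots at 8 h between 14.6 and 86.6 FPKM.

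**Figure D3:**
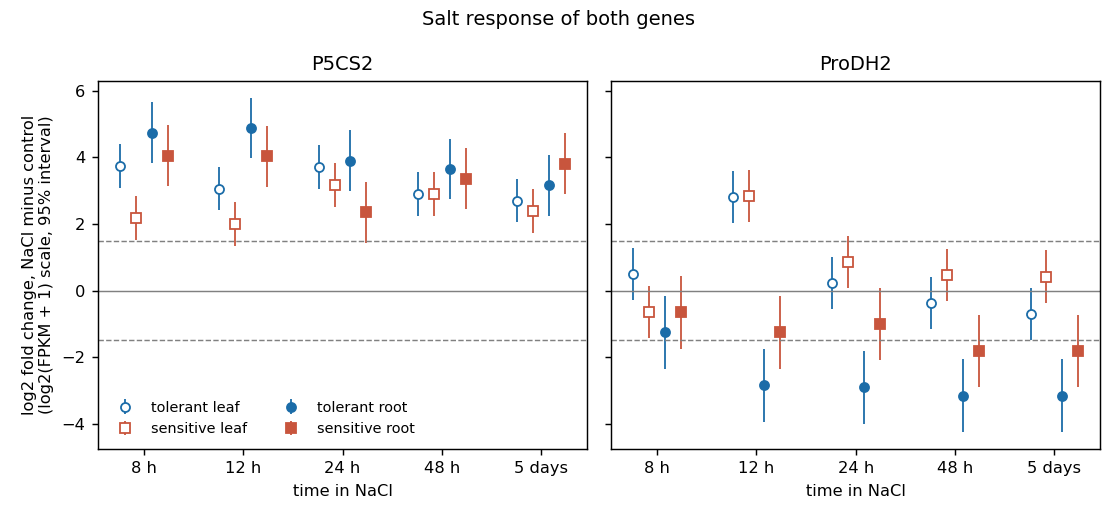
Log2 fold change of P5CS2 and ProDH2 in NaCl against control on the log2(FPKM + 1) scale, by time, with 95% intervals from limma on 36 libraries of a tissue; open symbols are leaves, filled symbols roots, and dashed lines the fold threshold of 1.5. P5CS2 lies between 2.00 and 4.88 throughout, and ProDH2 lies between -3.16 and -0.66 in roots and between -0.69 and 0.86 in leaves apart from 12 h.

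The salt response of ProDH2 differed between roots and leaves. In the fit of both tissues, the response in roots minus that in leaves was called in 5 of 5 times in the tolerant accession, from -5.66 at 12 h (SE 0.67, adjusted p = 3.467e-09) to -1.74 at 8 h (SE 0.67, adjusted p = 0.03951). In the sensitive accession it was called in 4 of 5 times, from -4.09 at 12 h (SE 0.67, adjusted p = 5.738e-06) to -1.86 at 24 h (SE 0.67, adjusted p = 0.02774), and the value at 8 h was -0.01 (95% interval -1.35 to 1.34). The tolerant value at 8 h lost its call without the libraries that stand apart (-1.56, adjusted p = 0.06486), as did the sensitive value at 48 h (-1.66, adjusted p = 0.06219). The tolerant values at 12 h, 24 h, 48 h and 5 days and the sensitive values at 12 h, 24 h and 5 days kept theirs. The tolerant value at 8 h lost its call when any 1 of 7 libraries was dropped, with values from -1.75 to -1.47, under median-ratio scaling (-1.39, adjusted p = 0.1223) and under a pseudocount of 0.1 (-1.79, adjusted p = 0.05231). Leaving out 1 library moved the tolerant value at 5 days to -1.90 without replicate 2 of the roots at that time (adjusted p = 0.05531). The sensitive value at 24 h lost its call when any 1 of 6 libraries was dropped, with values from -1.85 to -1.48, and that at 5 days in 2, with -1.86 without control leaf replicate 3 (adjusted p = 0.05088) and -1.81 without root replicate 2 of 5 days (adjusted p = 0.06409).

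P5CS2 rose more in roots than in leaves at 12 h in the tolerant accession (1.82, SE 0.56, adjusted p = 0.008354). In the sensitive accession it did so at 8 h (1.88, SE 0.56, adjusted p = 0.01005) and 12 h (2.03, SE 0.56, adjusted p = 0.004924). The difference was thus called in 1 of 5 tolerant and 2 of 5 sensitive times. Over the 5 times it ran from 0.18 to 1.82 in the tolerant and from -0.82 to 2.03 in the sensitive accession. The value for sensitive plants at 12 h was 1.499 (adjusted p = 0.04109), without the libraries that stand apart, and the tolerant value at 12 h was 1.46 (adjusted p = 0.0306) under a pseudocount of 5, both under the fold threshold. With the groups fitted alone the sensitive value at 12 h also lost its call (2.03, adjusted p = 0.06363). The difference in response between tissues was called in 13.9%, 15.0%, 12.5%, 11.7% and 6.76% of all genes from 8 h to 5 days in the tolerant accession. In the sensitive accession the shares were 11.7%, 11.8%, 15.1%, 7.58% and 9.81%. Fewer cells of a type and less RNA per cell cannot be told apart in these tissue samples.

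In non-stressed plants the genes stood in opposite order in the tissues. P5CS2 was lower in roots than in leaves, with a log2 difference of -2.33 in tolerant plants (SE 0.39, adjusted p = 1.361e-06) and of -2.43 in sensitive plants (SE 0.39, adjusted p = 6.467e-07). ProDH2 was higher in roots by 3.16 (SE 0.47, adjusted p = 1.111e-07) and by 2.12 (SE 0.47, adjusted p = 0.0001747). At 5 days P5CS2 was still lower in tolerant roots (log2 difference -1.86, SE 0.39, adjusted p = 8.105e-05), and in sensitive roots the difference of -1.02 was under the fold threshold (adjusted p = 0.02921). For ProDH2 no difference between tissues was called at 5 days, with 0.69 (95% interval -0.26 to 1.64) in tolerant and -0.13 (95% interval -1.08 to 0.82) in sensitive plants. Many genes differ between tissues, with 23.9% of all genes called in tolerant controls, 24.2% in sensitive controls and 19.5% at 5 days in each accession.

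The log2 ratio of P5CS2 to ProDH2, each in FPKM plus 1, put both movements into 1 number per library. In control roots it was -3.96, -3.10 and -3.67 in the tolerant and -1.75, -0.75 and -1.14 in the sensitive accession. In all other 66 libraries it was above 0, so ProDH2 exceeded P5CS2 in control roots alone. At 5 days the root ratios were 2.22, 3.62 and 2.41 in the tolerant and 4.65, 4.911 and 3.72 in the sensitive accession, and the mean difference from control was 6.33 and 5.64. In leaves the ratio was 1.59, 2.32 and 1.81 in tolerant and 3.45, 2.24 and 4.31 in sensitive controls, and at 12 h it was 1.75, 2.32 and 2.40 and 2.42, 2.78 and 2.32. These 12 h ratios overlapped their controls, while those of the other 4 times in leaves and all 5 times in roots lay above them. The exact permutation test of 3 against 3 libraries gave p = 0.1 (two-sided) for each of the 18 comparisons without overlap, which is the smallest p it can give, so none can pass 0.05.

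**Figure D4:**
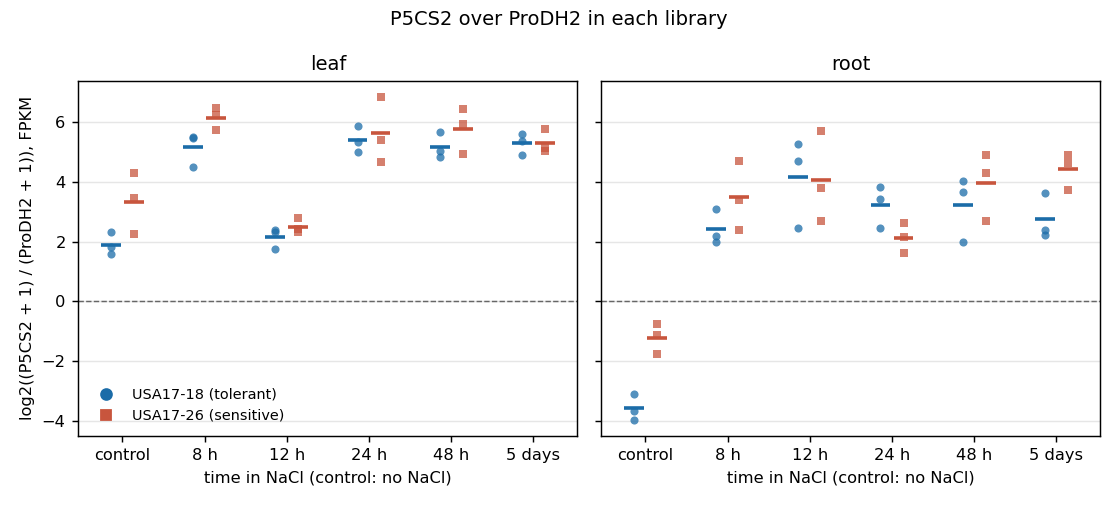
Log2 ratio of P5CS2 to ProDH2 (each FPKM + 1) in each of the 72 libraries by time in NaCl, leaves on the left and roots on the right; points are libraries, short lines means of 3 and the dashed line equal levels. Only the 6 control root libraries lie below 0, from -3.96 to -0.75, and leaves at 12 h lie at the level of their controls.

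The accessions were compared at the same tissue and time to ask whether tolerant and sensitive plants differ in these genes. P5CS2 was called in none of the 12 comparisons by limma, with an unadjusted p under 0.05 in 4 of them. The farthest from 0 was roots at 5 days, where tolerant libraries (71.3 to 139.3 FPKM) lay below sensitive libraries (185.6 to 323.9 FPKM) and the log2 difference was -1.41 (SE 0.45, adjusted p = 0.04558), under the fold threshold. Without the sensitive replicate 1 that held leaf markers it was -1.21 (adjusted p = 0.1741), and without the tolerant replicate 3 it was -1.72 (adjusted p = 0.02537) and was called. Control libraries of the tolerant accession also lay below the sensitive ones in leaves (log2 difference -0.87, SE 0.32, adjusted p = 0.1006) and in roots (log2 difference -0.76, SE 0.45, adjusted p = 0.3314). In roots at 24 h the order was turned, with every tolerant library above every sensitive one and a log2 difference of 0.79 (SE 0.45, adjusted p = 0.2063).

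ProDH2 was called in 1 of the 12 comparisons. In leaves at 8 h the tolerant libraries (14.8 to 27.1 FPKM) lay above the sensitive ones (2.62 to 7.70 FPKM), with a log2 difference of 1.70 (SE 0.38, adjusted p = 0.002645). Under a pseudocount of 5 it was 1.21, without the tolerant replicate 1 it was 1.43 and without the sensitive replicate 1 it was 1.34, all under the fold threshold. In control roots the tolerant libraries (85.3 to 151.5 FPKM) lay above the sensitive ones (33.7 to 43.4 FPKM), a ratio of means of 3.15, and the log2 difference of 1.599 just missed the threshold on p (SE 0.53, adjusted p = 0.05176). Without the libraries that stand apart the same 1.599 passed (adjusted p = 0.03499). After salt the accessions overlapped in ProDH2 in roots at every time, and at 5 days the log2 difference was 0.26 (95% interval -0.83 to 1.36).

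In the comparisons of accessions few genes were called at all. In leaves these were 2.03% in controls, 5.41% at 8 h, 2.33% at 12 h, 2.29% at 24 h, 1.69% at 48 h and 1.80% at 5 days. In roots they were 4.28% in controls, 2.47% at 8 h, 0.955% at 12 h, 6.08% at 24 h, 1.82% at 48 h and 2.42% at 5 days.

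Whether salt moved the genes by different amounts in the accessions was tested directly. For P5CS2 the response of tolerant minus sensitive leaves at 8 h was 1.57 (SE 0.45, adjusted p = 0.03218), the 1 call among 10 tests for the gene. It combines a control level that was lower with an 8 h level that was higher in the tolerant accession, by differences that were each not called. Of the 12 fits that each dropped 1 of its libraries, 8 lost the call, as did median-ratio scaling (1.31, adjusted p = 0.1131). In roots at 24 h the difference in response was of like size, 1.56 (SE 0.63, adjusted p = 0.1803), and was not called. With the groups fitted alone it was called (adjusted p = 0.006509). At 5 days the difference in response was 0.30 in leaves (95% interval -0.63 to 1.23) and -0.65 in roots (95% interval -1.94 to 0.64).

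For ProDH2 none of the 10 differences in response was called by limma, and 4 had an unadjusted p under 0.05. In roots the tolerant response was the lower one at all 5 times, from -0.60 at 8 h to -1.91 at 24 h (SE 0.75, adjusted p = 0.1655). These values share the control libraries of both accessions, in which ProDH2 was higher in tolerant roots. At 5 days the difference was -1.33 in roots (95% interval -2.88 to 0.21) and -1.12 in leaves (95% interval -2.22 to -0.01). The share of all genes called was 4.08%, 1.72%, 0.315%, 0.0843% and 0.0621% in leaves from 8 h to 5 days and 1.27%, 0.807%, 2.24%, 0.761% and 0.563% in roots.

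The rest of the pathway was read from 20 further genes. They were matched by words in their deposited names for proline and P5C enzymes, proline transport, arginase and ornithine aminotransferase. Of these genes, 19 passed the filter on low values. In each salt comparison between 0 and 6 of these 19 were called higher and between 0 and 4 lower, where 1.29 to 7.96% of all genes were called higher and 0.35 to 15.5% lower, and their median log2 fold change ran from -0.65 to 0.63, against -0.57 to 0.19 for all genes. The other synthase, P5CS1 (emFS1.987), was called in 1 of 20 salt comparisons, in tolerant roots at 48 h (log2 fold change 1.52, SE 0.16, adjusted p = 3.818e-08). It stood at 74.6, 86.3 and 77.6 FPKM in tolerant control roots, far above P5CS2 there, and at 35.97, 48.5 and 43.7 FPKM in tolerant control leaves. P5CS2 thus made up 10.5% of the summed FPKM of both synthases in tolerant and 14.3% in sensitive control roots (means of 3), and 54.3% and 62.0% in control leaves. At 24 h its share was 95.6% and 93.6% in leaves and 44.3% and 33.8% in roots. In roots it was 70.75% and 64.5% at 8 h and 36.05% and 58.0% at 5 days. Synthase genes are alike in sequence, and no source used here says how reads that match both were counted, so the split between them is uncertain.

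P5C reductase (emFS4.906), which makes proline from P5C, was called higher in 7 of 20 salt comparisons and had log2 fold changes from 0.21 to 2.32. In tolerant roots it went from 28.5, 30.9 and 28.5 FPKM in controls to 143.1, 165.2 and 127.1 FPKM at 8 h (log2 fold change 2.26, SE 0.27, adjusted p = 1.547e-07). In leaves at 12 h, when ProDH2 was high, it was near control in both accessions, with log2 fold changes of 0.33 in tolerant (adjusted p = 0.3338) and 0.21 in sensitive plants (adjusted p = 0.5918). On the ornithine route, arginase (emOS146.50), which makes ornithine, was called higher in 16 of 20 and ornithine aminotransferase (emOS43.53), which feeds ornithine into P5C, in 14 of 20. Arginase reached 175.2, 257.6 and 173.4 FPKM in tolerant leaves at 12 h from 13.6, 12.4 and 8.03 FPKM in controls. Neither gene was called at 5 days in any accession or tissue, in contrast to P5CS2.

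On the side of breakdown, the gene matched to P5C dehydrogenase (emFS1.156), the step after ProDH, also carries the name probable aldehyde dehydrogenase. The match is thus uncertain. This gene was called higher in 14 of 20 and lower in none, with log2 fold changes from 0.75 to 3.898. In tolerant leaves it was at 18.0, 18.4 and 13.4 FPKM in controls and at 180.3, 349.6 and 275.5 FPKM at 12 h. In tolerant roots at 48 h, where ProDH2 was called lower, it was called higher (log2 fold change 1.66, SE 0.31, adjusted p = 0.0001333). Proline transporter 1 (emFS4.620), which carries proline across membranes, was called lower in 9 of 20 salt comparisons and higher in none. In tolerant leaves it went from 89.7, 66.5 and 67.6 FPKM in controls to 14.1, 10.5 and 9.69 FPKM at 8 h (log2 fold change -2.61, SE 0.45, adjusted p = 5.379e-05).

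Among the other genes with proline terms in their names, calls were spread over few members. Of 8 prolyl 4-hydroxylases, which modify proline in proteins, emOS121.97 was called higher in 3 and lower in 3 salt comparisons, with log2 fold changes from -1.62 to 5.94, emOS36.56 higher in 3 and emFS1.788 lower in 1. The libraries of emOS121.97 were very uneven, with 191.1, 1.51 and 530.7 FPKM in sensitive roots at 8 h. One proline--tRNA ligase (emOS164.207) and one proline iminopeptidase (emOS43.538) were each called lower in 1 comparison. The others of these groups that were tested were not called in any.

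**Figure D5:**
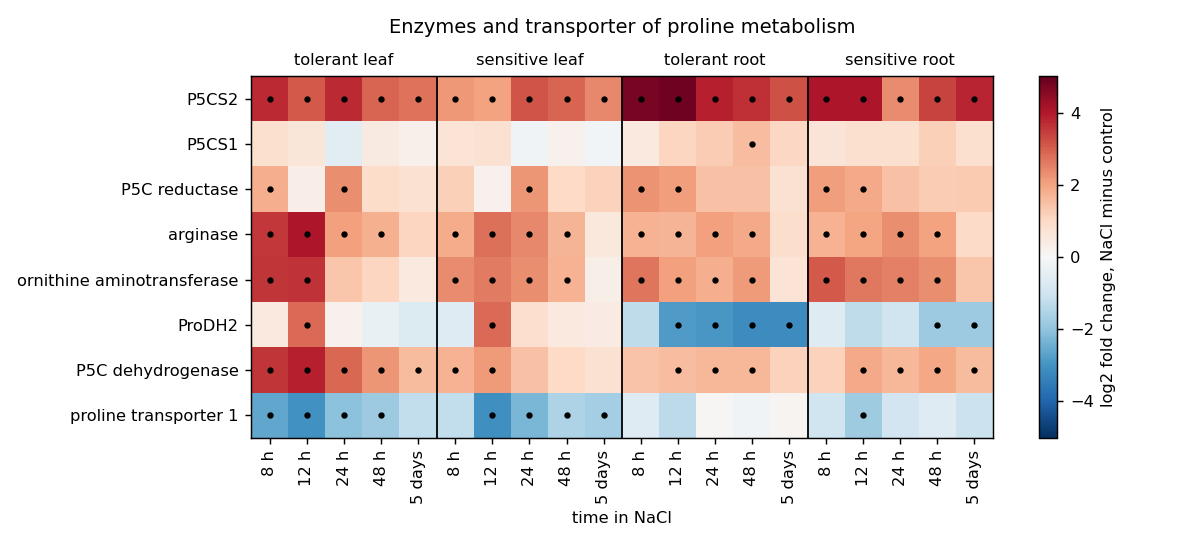
Log2 fold change in NaCl against control (colour, log2(FPKM + 1) scale) of P5CS2, ProDH2 and 6 other genes of proline metabolism in the 20 salt comparisons, with a dot where the difference was called. P5CS2 is called in 20 columns, arginase in 16, ornithine aminotransferase and the gene matched to P5C dehydrogenase (emFS1.156) in 14 each. ProDH2 is called in 2 as higher and 6 as lower.

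P5CS is known in other plants as a target of abscisic acid, the hormone of water deficit. Of the 33 genes matched to abscisic acid synthesis and breakdown, dehydrins and late embryogenesis abundant proteins, 25 to 27 were tested, and 5 to 15 were called higher and 0 to 3 lower in each salt comparison. Over all genes 1.29 to 7.96% were called higher and 0.35 to 15.5% lower in these comparisons. The median log2 fold change of the list lay between 0.30 and 2.82 and that of all genes between -0.57 and 0.19. The list holds 22 late embryogenesis abundant proteins, 2 dehydrins, 4 genes of abscisic acid synthesis and 5 of its breakdown. These groups were not counted apart, so the median does not stand for synthesis.

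Over the 24 condition means of log2(FPKM + 1), and among 19513 genes, the genes with a pattern most like P5CS2 were a galactinol-sucrose galactosyltransferase (emOS56.152, Pearson's r = 0.961), protein phosphatases 2C 30 (emOS55.579, r = 0.951) and 2C 9 (emFS18.1823, r = 0.936), a heavy metal-associated isoprenylated protein (emFS18.340, r = 0.943) and CBL-interacting protein kinase 6 (emOS181.439, r = 0.913). The first of these ranged over single libraries from 35.7 to 5173 FPKM. The lowest r with P5CS2 was that of an IAA-amino acid hydrolase (emOS99.203, r = -0.909), followed by a calmodulin-binding receptor-like kinase (emFS18.1875, r = -0.908) and a hypothetical protein (emOS124.123, r = -0.903). With P5C reductase P5CS2 had an r of 0.854 and with ProDH2 of -0.333. These are descriptions, since the 24 points share libraries, tissues and hours of the day.

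ProDH2 had no partner as close. Its highest values of r were those of CBL-interacting protein kinase 29 (emFS4.2104, r = 0.815), a hypothetical protein (emOS56.19, r = 0.814), a galactinol-sucrose galactosyltransferase (emFS0.155, r = 0.813), an ADP-ribosylation factor (emFS10.39, r = 0.793) and a lipid phosphate phosphatase (emFS18.705, r = 0.787). The lowest were an inositol monophosphatase (emOS43.249, r = -0.727), an acetyl-CoA carboxylase (emFS5.93, r = -0.718) and an oryzain alpha chain (emFS22.929, r = -0.69). In the order of its 24 condition means all 23 pairs of neighbours overlapped in their libraries. The series of levels ran from 2.62 to 151.5 FPKM over the 72 libraries with a median of 14.8 FPKM, against 8.78 to 1174 FPKM with a median of 305.5 FPKM for P5CS2.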

How the data were processed

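The 72 RNA-seq libraries (3 per condition) were used as deposited. The deposited values are FPKM per gene, made by the authors, whose methods name the unit RPKM. Reads were trimmed with Trimmomatic 0.32 and aligned with HISAT2 2.1.0 per the submitters' processing notes, and the authors tested with DESeq2. No source used here gives the counting tool, the strand setting or the genome build, and no read totals were used, so relative depth was estimated from steps in the values of 322 genes.

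Genes with at least 1 FPKM in at least 3 libraries entered (22551 in leaves, 22194 in roots, 23933 over both). log2(FPKM + 1), which understates the change of low genes, was fitted with limma 3.58.1 (R 4.3.3, trend), 12 groups of 36 libraries per tissue or 24 groups of 72 for comparisons of tissues, with Benjamini-Hochberg adjustment over all genes of each comparison. In all, 20 salt, 12 accession, 10 accession response and 4 tissue comparisons were made per gene. The 10 tissue response and 8 time comparisons, and the fit without 10 libraries whose correlation with their replicates was lower by over 0.03, were added after seeing the data. The fit was tested on simulated data. Ratios were compared by exact permutation tests. Replicates are biological by the methods.

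The genes and lists were chosen with earlier results of these data known. Genes were named by words in the deposited names (proline and P5C terms, arginase, ornithine aminotransferase, clock, abscisic acid). Users of proline were named where called in any salt comparison, and genes of like pattern by the 5 highest and 3 lowest Pearson's r. Alternatives were pseudocounts of 0.1 and 5, other filters and scalings, a fold threshold of 1, groups fitted alone, a replicate block, moderation without a trend, Spearman's rank correlation and each library left out. No sequence was used here.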

Additional observations from a re-analysis of the deposited data

Results flagged for a closer look

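These results stand out because the same salt contrast differed between accessions or tissues by a test of the difference itself (limma, log2(FPKM + 1) scale). Between accessions, the P5CS2 response in leaves at 8 h was larger in the tolerant accession by 1.57 (adjusted p = 0.03218). That call was lost in 8 of 12 fits that each dropped 1 library, under median-ratio scaling (1.31, adjusted p = 0.1131) and without the libraries that stand apart (1.45). Between tissues, the response in roots minus that in leaves was lower for ProDH2 in the tolerant accession at 8 h (-1.74), 12 h (-5.66), 24 h (-3.13), 48 h (-2.78) and 5 days (-2.46). In the sensitive accession it was lower at 12 h (-4.09), 24 h (-1.86), 48 h (-2.29, adjusted p = 0.01337) and 5 days (-2.25, adjusted p = 0.01274). For P5CS2 it was higher at 12 h in the tolerant accession (1.82) and at 8 h (1.88) and 12 h (2.03) in the sensitive accession. The tolerant P5CS2 value at 12 h lost its call under a pseudocount of 5 (1.46). The sensitive P5CS2 value at 12 h lost it without the libraries that stand apart (1.499) and with groups fitted alone (adjusted p = 0.06363). The ProDH2 value of the tolerant accession at 8 h lost its call when any 1 of 7 libraries was dropped. All 12 differences between tissues were chosen for testing after seeing the data.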

How the results depend on the processing

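P5CS2 was called higher in 20 of 20 salt comparisons under every alternative, and ProDH2 higher in 2 and lower in 5 to 7 when 1 library was left out. Over the accession comparisons, P5CS2 lower was called in 1 with a fold threshold of 1 (0 to 1 over the libraries left out), and ProDH2 higher in 2 with groups fitted alone (0 to 3 over the libraries left out). The fall of ProDH2 in sensitive roots at 5 days was -1.497 under a pseudocount of 5 and -2.17 to -1.39 over the libraries left out. Under a pseudocount of 5 the change of the log2 ratio in roots at 5 days was 5.55 in the tolerant and 5.04 in the sensitive accession. Without the libraries that stand apart ProDH2 in sensitive leaves at 48 h changed sign to -0.16, a value not called in either fit. The difference in response between accessions in roots at 24 h was called with groups fitted alone for P5CS2 (1.56, adjusted p = 0.006509) and ProDH2 (-1.91, adjusted p = 0.01672). Of 43 smaller values, 15 changed sign under at least 1 alternative and 1 passed the thresholds.

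Counts of all genes called in a salt comparison were 1.63 to 1.92 times the main count with a fold threshold of 1, 0.483 to 0.617 times under a pseudocount of 5, up to 1.53 times under a pseudocount of 0.1 and up to 5.33 times without the libraries that stand apart. Median-ratio scaling moved the median of all genes by -0.19 to 0.50 (log2). With a replicate block all 85 values kept their call, and P5CS2 was called higher in 20 and ProDH2 in 2 salt comparisons. Within a tissue the replicate numbers showed no pairing of the samples (median correlation of same-numbered deviations -0.012 in leaves and 0.002 in roots). Whether leaf and root libraries of the same number are paired was not tested. With Spearman's correlation 3 of the 5 genes most like each member were the same. Reads per library were not used, so the precision of single values rests on 3 libraries.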
